A study of Caenorhabditis elegans with 2 samples.

Results

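The cuticle collagen genes of Caenorhabditis elegans were examined for sites occupied by the transcription factor ZAG-1. The rule picks genes by name from the WBcel235 annotation and uses no measured value, although it was proposed with earlier results of these data known. It took every protein-coding gene with a symbol of the form col-number, which gave 156 genes, and 16 genes known by body shape symbols (bli-1, bli-2, dpy-2, dpy-3, dpy-5, dpy-7, dpy-8, dpy-10, dpy-13, dpy-17, rol-6, rol-8, sqt-1, sqt-2, sqt-3 and lon-3). All 172 were found, of 19985 protein-coding genes in all. Most of these genes encode secreted collagens of the exoskeleton, although the col- names also take in members that may serve elsewhere.

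The cuticle is a collagenous matrix that the epidermis secretes and replaces at each moult. Different collagens form its furrows, its annuli, the struts between its layers and the structures that fix the shape of the body, and mutants are known by the dumpy, roller, squat, blister or long animals they give. ZAG-1 is a zinc finger homeodomain protein of the ZEB family, studied mainly for its part in neuron differentiation.

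Chromatin immunoprecipitation with sequencing was done on whole L2 larvae of strain OP83, of both sexes, with the genotype unc-119(ed3) III; wgIs83, where the insertion expresses ZAG-1 tagged with eGFP. There were 2 biological replicates in 1 group, and no second strain, stage or treatment was analysed here. The larvae were not sorted, so a peak does not show which cell type it came from, and a site used in few cells cannot be told apart from a site that is weakly occupied in many. The authors' most stringent list, thresholded on the irreproducible discovery rate (IDR), held 1803 peaks, the pooled list of both replicates 16325, and the lists of replicates 1 and 2 held 24146 and 29374. The pooled and replicate lists also hold weak candidates. The deposited label of the pooled list is peaks and background as input for IDR, so an entry of that list, called a pooled peak here, may be background. Each peak carries a score from the authors, which ran from 29.6 to 449.9 (median 44.6) among IDR-thresholded peaks, and from 9.16 upward (median 12.5) in the pooled list. The scale of the scores is not stated, so levels were not compared between lists. Read depth is unknown, because peak lists give no counts. Coordinates are 1-based positions in ce11, the same assembly as WBcel235.

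IDR-thresholded ZAG-1 peaks were assigned to few of these genes, as to few genes at large. No such peak sat at the promoter of the collagen gene it was assigned to. Each summit went to 1 protein-coding gene, the one whose 5′ end was nearest and no farther than 5 kb. By this rule 8 of the 172 collagen genes had an IDR-thresholded peak (4.65%, 95% Wilson interval 2.38 to 8.91), against 6.99% of all protein-coding genes. These were col-94, dpy-10, sqt-1, col-181, col-185, col-108, col-72 and col-50, with 1 peak each. The background share lies inside the interval of the collagen share, so a lower share was not detectable from 8 genes under this rule. It lay above the interval for summits within 1 kb, with 1 gene (interval 0.10 to 3.22%) against 4.28%. Within 2 kb it lay inside, with 5 genes (interval 1.25 to 6.62%) against 5.61%. For gene bodies with 2 kb upstream it lay above again, with 4 genes (interval 0.91 to 5.83%) against 8.92%. That rule takes in more sequence at longer genes, and collagen genes are short. Genes are not independent draws, and all intervals here cover counting error only.

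**Figure D1:**
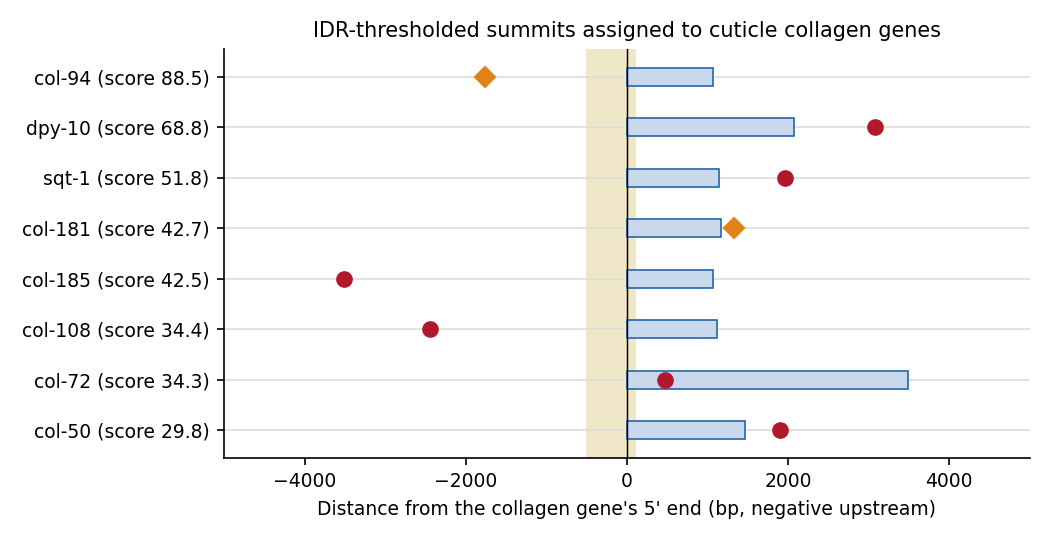
Each row is 1 collagen gene drawn from its 5′ end, with the gene body as a blue box and the summit of its IDR-thresholded peak as a point, on an axis of distance in bp. Diamonds mark summits within 50 bp of the 5′ end of a small RNA gene, and the shaded band is the promoter window of 500 bp upstream to 100 bp downstream; none of the 8 summits falls in it, and 4 lie beyond the far end of the gene.

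The strongest of these peaks, assigned to col-94, lay at the start of a small nuclear RNA gene. Its summit was 1763 bp upstream of col-94, inside an intron of the dynein heavy chain gene dhc-4 on the other strand, and 43 bp upstream of the snRNA gene R07E5.16 (III, 10989679 to 10989780). The peak assigned to col-181 lay 155 bp past the 3′ end of that gene and 38 bp upstream of the tRNA gene W03G11.t1 (X, 12106147 to 12106219, minus strand). The sequences of 75 bp to each side of both summits are shown because the small RNA genes begin inside them. They are from the RefSeq WBcel235 genome, plus strand, 5′ to 3′, and capitals mark bases annotated as snRNA or tRNA. The windows are chrIII:10989561-10989711 and chrX:12106182-12106332.
col-94: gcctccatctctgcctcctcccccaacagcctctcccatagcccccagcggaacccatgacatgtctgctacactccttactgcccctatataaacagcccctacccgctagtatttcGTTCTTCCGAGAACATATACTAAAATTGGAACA
col-181: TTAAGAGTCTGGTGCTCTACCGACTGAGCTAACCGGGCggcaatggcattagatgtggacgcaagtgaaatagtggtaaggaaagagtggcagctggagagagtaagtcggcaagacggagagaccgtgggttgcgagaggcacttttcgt

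The peaks assigned to dpy-10, sqt-1 and col-72 had no small RNA gene that close, and their sequences are shown with the motifs searched. The first motif searched was GAGAGA, a repeat of purines. The others were CGTCTC, which has no repeat, then ACGCAG, which has none either, then the repeat CACACA, and last the E-box CAGGTG of the type that ZEB proteins bind. Each was searched on both strands, and capitals mark any match. Neighbouring matches may overlap. The windows are chrII:6709074-6709224, chrII:11335802-11335952 and chrII:3523650-3523800, again on the plus strand of RefSeq WBcel235.
dpy-10: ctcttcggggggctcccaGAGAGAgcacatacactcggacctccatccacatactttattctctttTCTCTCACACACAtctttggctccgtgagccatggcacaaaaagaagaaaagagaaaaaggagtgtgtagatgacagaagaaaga
sqt-1: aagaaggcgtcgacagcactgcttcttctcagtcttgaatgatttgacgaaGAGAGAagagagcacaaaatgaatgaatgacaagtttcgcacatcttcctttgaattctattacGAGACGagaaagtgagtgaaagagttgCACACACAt
col-72: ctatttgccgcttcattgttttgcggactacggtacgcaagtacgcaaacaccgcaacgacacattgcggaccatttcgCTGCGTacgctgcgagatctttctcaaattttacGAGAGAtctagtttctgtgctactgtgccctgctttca

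The collagen peaks were found in both replicates at nearly the same place. The col-94 peak (III, 10989448 to 10989823) scored 58.2 in replicate 1 and 32.3 in replicate 2, ranking 185 and 234 there and 194 in the pooled list with a score of 88.5. The dpy-10 peak (II, 6708961 to 6709336) scored 42.4 in replicate 1 and 23.9 in replicate 2, with ranks 402 and 493, and 68.8 in the pooled list. Both stood among the strongest peaks of each replicate. DPY-10 is a furrow collagen whose loss shortens and thickens the body. The sqt-1 peak (II, 11335689 to 11336064) scored 28.9 in replicate 1 and 20.4 in replicate 2, with ranks 893 and 690, and 51.8 in the pooled list. SQT-1 is a collagen in which different mutations give squat or rolling animals. Its summit lay 816 bp past the 3′ end of the gene, and that of dpy-10 lay 1000 bp past it. The sqt-1 summit was 1960 bp from the sqt-1 5′ end and 1286 bp from that of the non-coding RNA gene B0491.11. The dpy-10 summit was 3078 bp from the dpy-10 5′ end and 1260 bp from that of the non-coding RNA gene T14B4.18. The next protein-coding gene there, rpy-1, was 3506 bp away. Which gene each peak belongs to was not tested.

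The other 5 peaks had lower pooled scores, and their order differed between the replicates. The col-181 peak (X, 12106069 to 12106444) scored 19.0 in replicate 1 and 22.6 in replicate 2, with ranks 1857 and 547, and 42.7 in the pooled list. The col-185 peak (X, 13514422 to 13514797), 3513 bp upstream, scored 31.0 and 11.9, with ranks 778 and 1859, and 42.5 in the pooled list. These genes changed places between the replicates, and each exceeded sqt-1 in 1 of them, col-185 in replicate 1 and col-181 in replicate 2. The col-108 peak (IV, 1765960 to 1766335), 2440 bp upstream, scored 20.1 in replicate 1 and 12.3 in replicate 2, with ranks 1694 and 1735. The col-72 peak (II, 3523537 to 3523912), 472 bp inside the gene in an intron, scored 22.8 and 11.2, with ranks 1385 and 2076. The col-50 peak (I, 3650608 to 3650983), 440 bp past the 3′ end of the gene, scored 19.8 and 9.54, with ranks 1739 and 2780. The pooled scores of these 3 peaks were 34.4, 34.3 and 29.8, in the order given, and the last stood at rank 1795 of 1803. The col-85 peak was just outside the threshold, at rank 1816 with a pooled score of 29.5.

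Taking the same number of highest-scoring peaks from each replicate gave similar counts and partly different genes. Replicate 1 alone gave 8 collagen genes (4.65%, interval 2.38 to 8.91), against 6.88% of all genes, and replicate 2 alone gave 9 (5.23%, interval 2.78 to 9.64), against 6.80%. The genes col-94, dpy-10, sqt-1 and col-108 were assigned a peak by both, and they were the 4 members in common, of 172. Over all protein-coding genes, 941 of 19985 were assigned a peak by both. Of the 8 IDR-thresholded peaks, 7 met a peak among the 1803 strongest of replicate 1 and 5 among the 1803 strongest of replicate 2. Their summits lay within 36 bp of the replicate 1 summit and within 74 bp of the replicate 2 summit. The IDR-thresholded and pooled lists were made from these same libraries, so this is not separate evidence.

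**Figure D2:**
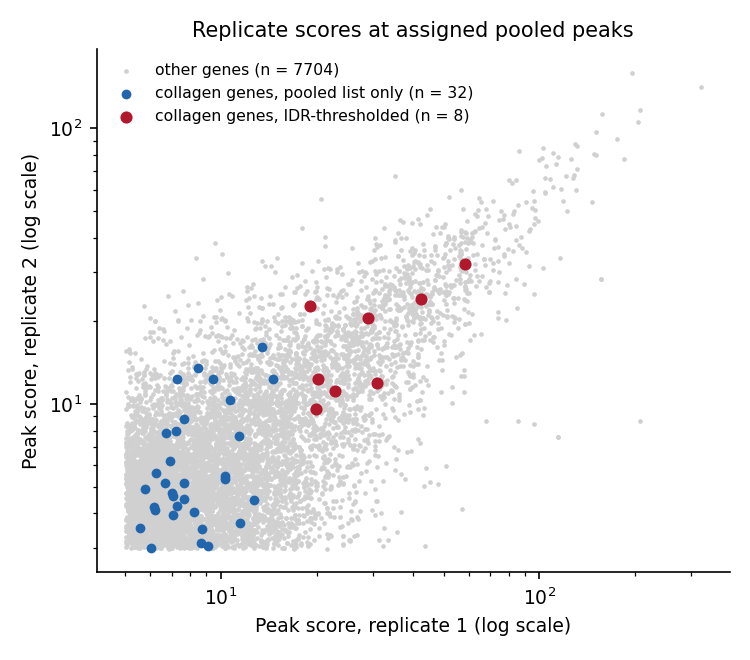
Each point is a pooled peak assigned to a gene and met by a peak in both replicates, with its score in replicate 1 on the x axis and in replicate 2 on the y axis, both on log scales. The 8 IDR-thresholded collagen peaks (red) lie between 19.0 and 58.2 in replicate 1 and between 9.54 and 32.3 in replicate 2, within the cloud of peaks at other genes (grey), and the 32 other collagen peaks (blue) lie toward its lower end.

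The place of the peaks relative to the gene differed from the usual one. Of the 8 assigned summits, 0 lay within 500 bp upstream to 100 bp downstream of the collagen 5′ end (upper bound of the Wilson interval 32.4%), while 638 of all 1583 assigned summits did (40.3%, interval 37.9 to 42.7). Beyond the 3′ end of the assigned gene lay 4 of the 8 (50%, interval 21.5 to 78.5), against 7.33% of all. The median distance from the 5′ end was 1933 bp, against 739 bp. These intervals do not overlap those of all assigned summits for the promoter or for the 3′ side. For 5 of the 8 summits (62.5%) a non-coding gene had a nearer 5′ end, counting genes of any type, against 37.0% of all assigned summits with a nearer gene of any type. No interval was made for this share, and 8 summits are too few to read a difference from it. In the pooled list, 10.6% of the 66 collagen summits lay in the promoter (interval 5.23 to 20.3), against 22.1% of all, and 34.8% past the 3′ end (interval 24.5 to 46.9), against 9.66%.

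Collagen genes are short, and gene length moved with part of this result. Their median length was 1214 bp against 2026 bp over all protein-coding genes. Among the 3434 other genes with a length in the middle 50% of collagen gene lengths (1058 to 1591 bp), 4.34% had an IDR-thresholded peak, close to the 4.65% of collagen genes. Of the 168 summits assigned to those genes, 18.5% lay past the 3′ end (interval 13.3 to 25) and 50.6% in the promoter (interval 43.1 to 58.1). The collagen interval stays below that promoter interval and overlaps that of the 3′ side. Among pooled summits of the same length class, 25.9% lay in the promoter (interval 23.8 to 28.2) and 18.03% past the 3′ end (interval 16.2 to 20.1), and neither interval overlaps that of the collagen genes. Only the other genes were limited to this length range. The collagen side kept all 172 genes, those outside the range included, so the comparison is not fully matched for length. Whether length sets the differences was not tested beyond this comparison. Collagen promoters had a median GC content of 37.3%, against 34.6% over all genes, and its part was not tested.

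**Figure D3:**
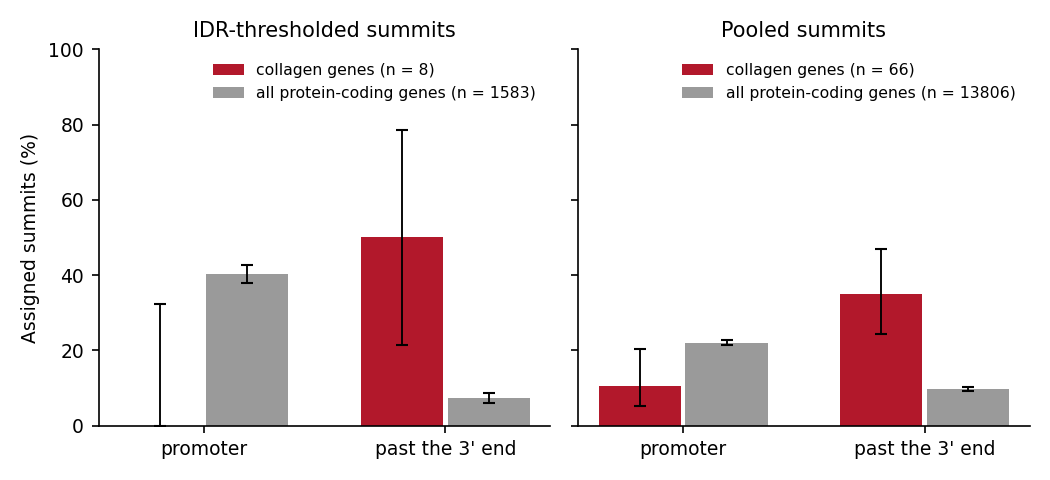
Bars give the percentage of assigned summits in the promoter window and past the 3′ end of the assigned gene, for collagen genes (red) and all protein-coding genes (grey), with 95% Wilson intervals as error bars. The left panel has IDR-thresholded summits (8 against 1583) and the right panel pooled summits (66 against 13806); in both, collagen summits are fewer at promoters and more frequent past the 3′ end.

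A few collagen promoters did hold an IDR-thresholded summit, but each of those summits was nearer to another gene. Irrespective of assignment, the promoter windows of 2 collagen genes, col-38 and col-71, held one (1.16%, interval 0.32 to 4.14), against 4.0% of all genes. The peak at col-38 (II, 8569343 to 8569718) scored 60.2 in the pooled list, 40.2 in replicate 1 and 20.5 in replicate 2. Its summit was 443 bp upstream of col-38 and 396 bp upstream of rpl-5, a gene for a protein of the large ribosomal subunit, so it sits between genes that point away from each other. The peak at col-71 (II, 3502655 to 3503030) scored 38.1, 26.9 and 11.9 in the same lists. It lay 273 bp upstream of col-71 and 125 bp upstream of Y49F6B.2.

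Of all collagen gene bodies, col-72 alone held IDR-thresholded summits (0.58% of members, against 2.27% of all genes and 0.44% of the other genes of similar length). It held 2 of them, both in introns. The further one (II, 3521327 to 3521702) scored 52.1 in the pooled list, 26.7 in replicate 1 and 24.5 in replicate 2, and it was the stronger of the pair. It was assigned to W09G10.9, whose 5′ end was 285 bp away, and its summit was 43 bp from the 5′ end of the tRNA gene W09G10.t1.

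Summits of the pooled list, which by its label holds background as well as peaks, were assigned to a smaller share of collagen genes than of genes at large. The deposited −log10 q-value of the collagen entries ran from 2.50, as at col-94, down to 0.018 at col-177. No entry was left out for its q-value, so the counts below are not counts of established sites. A pooled summit was assigned to 49 of the 172 genes (28.5%, interval 22.3 to 35.7), against 41.6% of all genes and 31.1% of the other genes of similar length. The share of all genes lies above the interval, and that of the length class lies inside it. With the same number of strongest peaks from replicate 2 alone, 68 genes had one (39.5%, interval 32.5 to 47.0), and the 43.1% of all genes then lay inside. From replicate 1 alone, 58 had one (33.7%, interval 27.1 to 41.1), against 42.2%. The 49 genes held 66 summits. Bases nearest to a collagen 5′ end came to 0.652 Mb, with a median of 3302 bp per gene against 3857 bp over all genes. This gave 101 pooled summits per Mb against 160 over all genes, and 12.3 IDR-thresholded summits per Mb against 18.4. At the rate over all genes, 105 pooled and 12 IDR-thresholded summits would have been assigned in that space. Promoter summits of the pooled list were found at 11 collagen genes (6.40%, interval 3.61 to 11.1), against 17.4% of all genes and 13.7% of the length class. In 4 of the 11, col-2, col-38, col-71 and col-143, the summit was nearer to another gene. Within 100 bp of a collagen 5′ end there was no pooled summit, against 4.96% of all genes, and within 10 kb the shares were 88.4% for both.

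**Figure D4:**
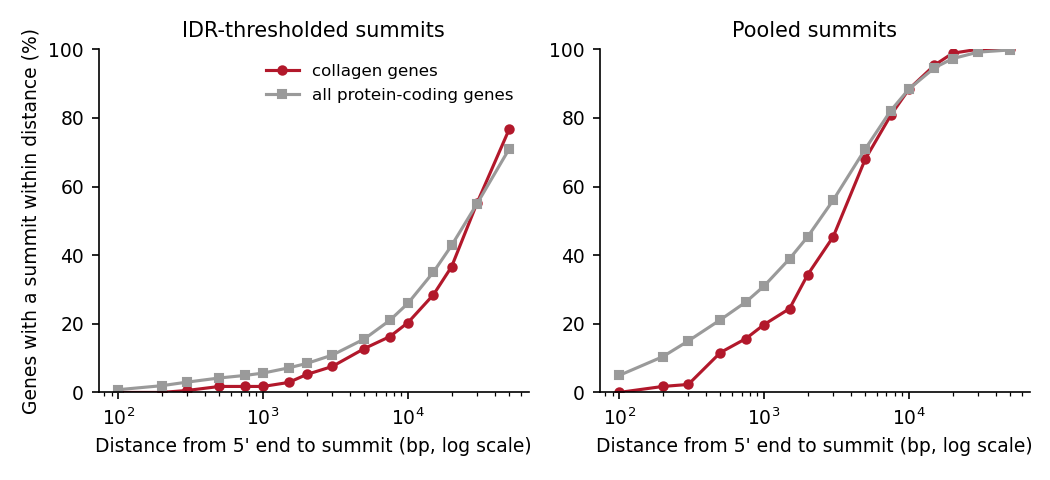
Curves give the percentage of genes with a summit within each distance of their 5′ end, in bp on a log scale, whichever gene the summit was assigned to, for the 172 collagen genes (red) and all protein-coding genes (grey). In the right panel of pooled summits the curves part below 5 kb, with 19.8% against 31.0% within 1 kb, and meet at 10 kb; the left panel shows IDR-thresholded summits, with 1.74% against 5.64% within 1 kb.

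Strength among the genes with a peak was similar to that elsewhere. The highest pooled score per gene had a median of 13.2 over the 49 collagen genes and 13.6 over all genes with a pooled peak. Of the 49, 16.3% had an IDR-thresholded peak, against 16.8% of all genes with a pooled peak. A pooled peak met by a peak in both replicates was found at 32 collagen genes (18.6%), against 26.0% of all genes, and 60.6% of the 66 collagen peaks were met in both, against 56.1% of all assigned peaks. Across the 40 collagen peaks met in both, the replicate scores correlated at 0.60 (Spearman) and 0.84 (Pearson), against 0.54 and 0.81 over all such peaks. These correlations are across peaks that share their 2 libraries and are given as a description. All peaks of a replicate list counted, 83 collagen genes had one in replicate 1 (48.3%, against 55.1% of all genes) and 99 in replicate 2 (57.6%, against 62.5%). No peak of the pooled or replicate lists was assigned to 47 of the 172 genes (27.3%, against 24.4% of all genes).

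The strongest pooled peaks below the IDR threshold lay mostly away from the collagen promoters. The col-85 peak (II, 12494594 to 12494969) scored 13.5 in replicate 1 and 16.1 in replicate 2. It lay in an intron of col-85, inside the tRNA gene T21B4.t1 and 41 bp from its 5′ end. The col-130 peak, with a pooled score of 23.2, lay 1682 bp past the gene in an intron of ugt-65, which encodes a UDP-glucuronosyltransferase. Pooled scores were 21.3 at col-176, past its 3′ end, and 20.4 at col-63, where the summit lay 714 bp upstream in an untranslated exon of the homeobox gene ceh-8. The col-99 peak, with a pooled score of 17.8, was 47 bp from the 5′ end of another tRNA gene within its intron, F29C4.t1. Scores of 16.1 at col-88, 15.4 at col-81 and 15.1 at col-78 followed, of which only the col-78 summit lay inside the gene, 364 bp from its 5′ end in an intron.

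Small RNA genes recurred at the collagen peaks. Among the 66 pooled summits assigned to collagen genes, 7 (10.6%) lay within 50 bp of the 5′ end of a tRNA, snRNA, snoRNA or rRNA gene, against 1.38% of all assigned pooled summits and 1.79% of those at other genes of similar length. These were the summits of col-85, col-94, col-98, col-99, col-175, col-181 and col-185, the last at a weak pooled peak with a score of 12.2. Of the 7 small RNA genes, R07E5.16 encodes an snRNA and the others tRNAs. Within 200 bp the collagen count was still 7, against 2.77% of all and 4.11% of those at genes of similar length. Among IDR-thresholded summits, 2 of 8 at collagen genes lay within 50 bp, against 4.23% of all and 4.76% at genes of similar length. Within 200 bp it was again 2 of 8, against 6.89% and 13.1%. These comparisons were made after the values were seen. Summits within 200 bp of such a gene left out, 6 collagen genes kept an IDR-thresholded peak and 45 a pooled one, against 6.52% and 40.8% of all genes.

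The collagens known by mutant shapes were also read apart from the col- genes. Of the 16 shape genes, 8 had a pooled peak and 2 an IDR-thresholded one, while 41 of the 156 col- genes had a pooled peak (26.3%) and 6 an IDR-thresholded one (3.85%). Over all genes the shares were 41.6% and 6.99%, so the 50% of shape genes with a pooled peak is near the background. Of the furrow collagens dpy-2, dpy-3, dpy-7, dpy-8 and dpy-10, peaks of the pooled list were assigned to dpy-3, dpy-7 and dpy-10. The dpy-3 summit (pooled score 23.04, replicate scores 8.45 and 13.5) lay 3767 bp past the gene. At dpy-7 a summit in a coding exon had a pooled score of 12.4 and replicate scores of 7.65 and 4.53. Another lay 182 bp upstream, in the promoter, with a pooled score of 12.3 and replicate scores of 7.27 and 4.26, close to the median scores of the 3 lists (12.5, 7.25 and 4.56). The deposited −log10 q-values at dpy-7 were only 0.30 in the coding exon and 0.29 in the promoter. The furrow genes dpy-2 and dpy-8 had no pooled peak.

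The remaining shape genes had weak peaks or none. Among collagens whose mutants roll or are squat, the sqt-2 summit lay 1008 bp upstream (pooled score 22.1, replicate scores 10.7 and 10.3). The sqt-3 summit lay past the 3′ end (pooled score 11.6), and rol-6 had 3 summits with a pooled score of at most 10.1. The genes rol-8, lon-3 and dpy-17 had no pooled peak. Of the annulus collagens, dpy-13 had a pooled peak 2895 bp from its 5′ end with a score of 9.24, and dpy-5 had none. The strut collagens bli-1 and bli-2, needed to hold the cuticle layers together, had none. Collagens of the same kinds outside the naming rule gave pooled scores of 9.69 at dpy-9, 12.1 at bli-6 and 12.4 at rol-1.

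Members lying side by side mostly had no peak, as was true of the members at large. In 20 runs of neighbouring collagen genes there were 48 members, of which 5 had a pooled peak (10.4%, against 28.5% of all 172 members and 41.6% of all genes) and 2, col-94 and col-50, an IDR-thresholded one. The longest run, col-167 to col-171 on X, had 5 genes and no pooled peak, and neither had the run of col-79, col-39, col-80 and bli-1 on II. The assignment rule divides the bases between neighbouring 5′ ends. In these runs a member had from 1145 bp (col-141) to 6960 bp (col-105), against a median of 3302 bp over all members. The share was not corrected for this space. Whether reads that fit several near-identical collagen genes were kept is not stated, so an absent peak at such genes is uncertain.

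The collagen share with a pooled peak was below the share of all genes on every chromosome. It was lowest on V, at 4 of 33 genes (12.1%, against 32.7%), and the gap was widest on X, at 8 of 30 (26.7%, against 55.0%). Shares were 34.4% against 37.8% on II, 38.5% against 46.4% on III, 35.7% against 40.7% on IV and 27.3% against 45.4% on I. Members on each chromosome called at that chromosome's own share would have given 72.5 genes in place of 49, and 12.2 in place of 8 for IDR-thresholded peaks. Gene length was not matched by chromosome, and no interval was made for each one. Over all chromosomes, 31.1% of the other genes of similar length had a pooled peak, inside the collagen interval of 22.3 to 35.7%. Chromosome V had no collagen gene with an IDR-thresholded peak.

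**Figure D5:**
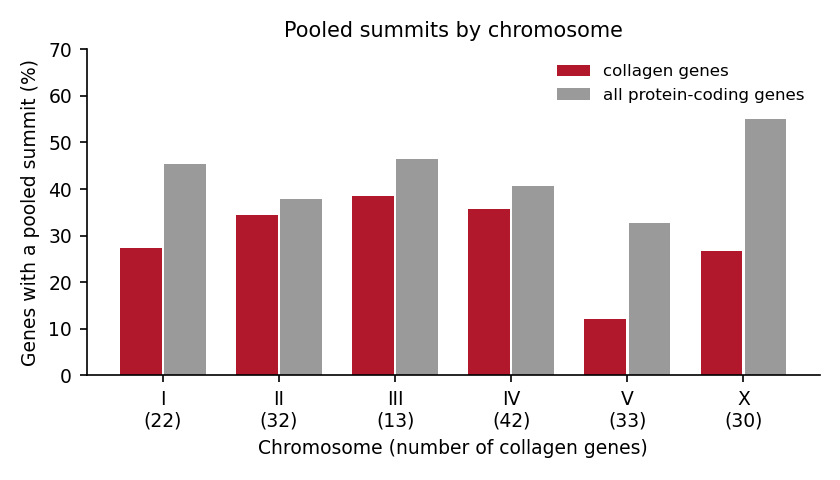
Bars give the percentage of collagen genes (red) and of all protein-coding genes (grey) with an assigned pooled summit on each chromosome, with the number of collagen genes in brackets. The red bar is lower on each of the 6 chromosomes, from 12.1% on V to 38.5% on III. No counting error is drawn, and each red bar rests on only 13 to 42 genes, so small gaps are uncertain.

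Motif shares and base composition under the collagen summits were set beside those of all peaks of the same list. Within 100 bp of the summit, GAGAGA was found in 5 of the 8 IDR-thresholded collagen windows, against 49.8% of all 1784 nuclear windows. CGTCTC was in 2 (33.9% of all), ACGCAG in 1 (27.6%) and CACACA in 3 (30.5%). The E-box CAGGTG was in none, against 1.91% of all. In the pooled list the same E-box was found in 3 of the 66 collagen windows (4.55%, against 4.46% of all), at col-60, col-110 and col-111. Median GC content was 45.0% in the 8 windows (32.8 to 54.7) and 45.8% in all IDR-thresholded windows. In the pooled list it was 41.0% in the 66 collagen windows and 38.3% in all. The lowest IDR-thresholded value was that of col-185, whose window held none of the motifs. A match describes the letters only and is not a measured site.

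Other genes of collagen biosynthesis and of the epidermis gave peaks in the same lists. Of 16 genes for collagen processing and crosslinking, 1 had an IDR-thresholded peak (6.25%, near the 6.99% of all genes) and 11 a pooled one (68.8%, against 41.6%). Gene length was not matched for this list or for those that follow. The pooled share differed with length elsewhere, at 31.1% in the length class of the collagen genes. The first was at pdi-6, a protein disulphide isomerase gene, with the summit 5 bp from the 5′ end (X, 7068370 to 7068745, pooled score 46.7, replicate scores 28.2 and 18.8). The gene pdi-2, for the isomerase subunit of prolyl 4-hydroxylase, had a pooled peak 31 bp upstream just below the threshold (score 27.6, replicate scores 19.4 and 8.59). Both lay at the start of the gene, where no summit assigned to a collagen gene by the IDR-thresholded list was found.

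Of 17 genes listed as regulators of the epidermis or of body size, 2 had IDR-thresholded peaks (11.8%, against 6.99% of all genes) and 12 pooled ones (70.6%, against 41.6%). The list also takes in pqm-1, dsc-1 and lon-1, and whether each listed gene acts in the epidermis was not checked. The stronger of 2 IDR-thresholded peaks at myrf-1, a membrane-bound transcription factor gene needed for larval development, lay 333 bp upstream (II, 10502686 to 10503061, pooled score 102, replicate scores 61.4 and 40.4). The other lay 736 bp into the gene, in an intron, with a pooled score of 44.9. The strongest of 4 IDR-thresholded peaks at sma-9, a zinc finger gene of the BMP body size pathway, lay 2988 bp upstream (X, 10766106 to 10766481, pooled score 119.6, replicate scores 96.4 and 25.1). The strongest peak of each gene scored above every collagen peak in the pooled list. Regulators of cuticle and moulting genes such as nhr-23, nhr-25 and elt-3 had pooled peaks only.

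None of the 3 basement membrane collagen genes, 6 cuticlin genes or 15 apical matrix and moulting genes had an IDR-thresholded peak, and at 6.99% of all genes few such peaks would fall in lists of this size. Pooled peaks were assigned to 41.6% of all genes and to all of the 3 basement membrane genes, with the highest scores at cle-1 (19.5, in an intron) and emb-9 (14.2, 2350 bp upstream). Of the cuticlins, cut-4 (score 15.9, 56 bp into the gene) and cut-6 (score 9.83) had a pooled peak (33.3%). Of the matrix and moulting genes 11 had one (73.3%), with fbn-1 (score 18.6) and mlt-11 (score 15.4) highest. The lists were chosen with earlier results of these data known, and the counts are given without a test.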

How the data were processed

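The cuticle collagen set, the gene lists and the motifs were chosen with earlier results of these data known. The deposited file list names, for each replicate, 1 alignment and 1 further file as the source of its ce11 peaks, and both replicates as the source of the pooled peaks. Which caller, which filters and which treatment of multiply mapping reads the authors chose is not given in the sources used here. Both the deposited score and the deposited −log10 q-value of each peak are the authors'. The q-value was not used for any count. The 1803 IDR-thresholded peaks were the 1803 highest-scoring pooled peaks, and no replicate peaks had equal coordinates.

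Summits were assigned to the nearest protein-coding gene 5′ end within 5 kb (Ensembl release 115, WBcel235). Promoters ran from 500 bp upstream to 100 bp downstream. Replicate peaks met a pooled peak when they overlapped by at least 1 bp. Counts and medians are set beside those of all 19985 protein-coding genes, and no test was made, since there is 1 group and the set was chosen by name. Intervals are 95% Wilson intervals. The search for the nearest 5′ end was checked on simulated summits planted close to known 5′ ends. This check does not show that a distant summit belongs to its assigned gene. Named genes were all collagen genes with an IDR-thresholded peak, the next 10 by pooled score, the 16 shape genes and the leading genes of the other lists; others were chosen after their values were seen. Small RNA distances, genes of similar length, runs of neighbours and the removal of summits near small RNA genes were added after seeing the data. The ce10 lists were not used. Python 3.11.15, numpy 2.4.6, scipy 1.17.1 and matplotlib 3.10.9 were used.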

Additional observations from a re-analysis of the deposited data

How the results depend on the processing

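The count of collagen genes with an IDR-thresholded peak depended on the assignment rule. It was 8 with any transcript start, 5 within 2 kb, 1 within 1 kb, 3 with non-coding genes included, 4 with gene bodies or 2 kb upstream and 3 among the higher-scoring 50% of peaks. The share of all genes under those rules was 7.26%, 5.61%, 4.28%, 4.62%, 8.92% and 3.61%. The all-gene share lay above the collagen interval within 1 kb and with gene bodies, and inside it under the others. From 1 replicate alone the count was 8 to 9. The pooled count of 49 was 25 within 1 kb, 30 with non-coding genes included and 27 among the higher-scoring 50%, against 26.1%, 33.0% and 24.0% of all genes, and 58 to 68 from 1 replicate alone, against 42.2% and 43.1%. The all-gene share lay above the interval under each of these but replicate 2 alone (68 genes, interval 32.5 to 47.0%). Collagen promoters with an IDR-thresholded summit numbered 1 among the higher-scoring 50% and 1 to 2 from 1 replicate, against 2.19% and 3.75 to 3.79% of all genes. They numbered 2 with any base of the peak or with 1000 bp upstream, against 4.63% and 5.22%. The all-gene share lay above the collagen interval under these last rules (0.32 to 4.14%) and with replicate 2 alone (0.10 to 3.22%). It lay inside under the main rule, the higher-scoring 50% and replicate 1 alone. Collagen promoters with a pooled summit numbered 20 with 1000 bp upstream, 6 among the higher-scoring 50% and 10 to 11 from 1 replicate, against 24.2%, 11.8% and 15.4 to 16.9% of all genes. With the higher-scoring 50% of each replicate list, 18 genes in place of 32 had a peak met in both, against 16.3% of all genes. Within 50 bp of the summit, CGTCTC and CACACA were each found in 1 window. The cause of these changes was not tested, beyond the smaller windows and lists themselves. No paired analysis was possible because there is 1 group. Read depth is unknown, and 8 peaks bound what any share among them can show.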
